A study of Mus musculus with 4 samples.

Results

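Heat shock and cell stress genes were followed across mouse brain slices after photothrombotic (PT) injury, a light-triggered clotting of cortical vessels that leaves a focal ischaemic lesion. The 9 members, chosen by gene symbol, were Hspa1a, Hspa1b, Hspb1, Dnajb1, Hsph1, Hspa5, Ddit3, Atf3 and Gadd45b, out of 32285 genes in the count tables. The members and the gene lists used below were chosen with earlier results of these data known. All 9 had unique molecular identifiers (UMIs, 1 per captured mRNA molecule) in every slice. RNA was captured on 4 Visium capture areas, slides printed with barcoded spots that each cover a patch of tissue holding several cells, and each area held 2 slices, 1 per mouse. Wild-type (WT) mice gave 1 slice at rest, 1 at 2 days post-injury (dpi), 2 at 7 dpi and 2 at 21 dpi. The last 2 slices came from injured Cthrc1(creER); R26(DTA) mice at 21 dpi, called deleter mice, in which tamoxifen-activated Cre under Cthrc1 control is meant to kill myofibroblasts through a diphtheria toxin chain. The study's methods describe the deletion in these mice as undetectable. Mice of both sexes were used, and the methods give a range of ages in weeks for the mice of the study in general but not the age of each mouse used here.

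Slices held 827 to 1726 tissue spots and 11332780 to 23677298 UMIs. The median per spot was 12447 to 16158 UMIs in 7 slices but 2633.5 at 2 dpi, where 777 of 1726 spots had under 2000 UMIs. Which piece of the shared area was at rest and which at 2 dpi is not in the labels and was taken from the outlines in the study's published spatial maps. Rest and 2 dpi shared an area, but every other time point or genotype had an area of its own, so that the 2 cannot be told apart. Sex differed as well: Xist marked the slices at rest, 2 dpi and 7 dpi and deleter slice 1, whereas Ddx3y and Eif2s3y marked both WT slices at 21 dpi and deleter slice 2. Between 7 dpi and WT slices at 21 dpi, time point, area and sex therefore cannot be told apart. Cthrc1 stood at 0.0638 and 0.0895 UMIs per 10000 in the deleter slices and at 0.124 and 0.120 in the WT slices at 21 dpi. It was at 0.0942 at rest, 0.0940 at 2 dpi, and 0.240 and 0.446 at 7 dpi. Each level below is a sum of UMIs over spots per 10000 UMIs of the same spots, so fewer cells of a type and less RNA per cell cannot be told apart.

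Cells answer damaged protein with several partly separate programmes. In the cytosol, heat shock factor 1 (HSF1) switches on chaperones that hold, refold or disaggregate proteins. In the endoplasmic reticulum (ER), the unfolded protein response raises lumenal chaperones through the sensors ATF6, IRE1 and PERK. PERK and related kinases also feed the integrated stress response, in which the transcription factor ATF4 raises further factors such as ATF3 and CHOP, the product of Ddit3. Ischaemia is a classical trigger of all of these in brain, and inducible HSP70 is a long-used mark of stressed neurons at the border of an infarct.

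The stretches before the transcription starts are shown for Hspa1a and Hspb1, which hold a heat shock element core, and for Hspa5, which holds an ER stress element. All 9 members had a window in the RefSeq promoter table (build GRCm38.p6), with 11 windows in total, and the 250 bases before the start were searched on both strands. The first 2 sequences carry the core of a heat shock element, GAANNTTC, in capitals. The third carries, in capitals, an ER stress element, that is CCAAT and CCACG with 9 bases between them.
Hspa1a, chr17:34972157-34972406, minus strand: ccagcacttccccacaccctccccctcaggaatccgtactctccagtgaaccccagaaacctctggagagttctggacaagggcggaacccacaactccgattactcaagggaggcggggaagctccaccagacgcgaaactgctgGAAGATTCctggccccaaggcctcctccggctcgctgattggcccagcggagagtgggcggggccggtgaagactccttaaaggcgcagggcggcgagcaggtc
Hspb1, chr5:135887669-135887918, plus strand: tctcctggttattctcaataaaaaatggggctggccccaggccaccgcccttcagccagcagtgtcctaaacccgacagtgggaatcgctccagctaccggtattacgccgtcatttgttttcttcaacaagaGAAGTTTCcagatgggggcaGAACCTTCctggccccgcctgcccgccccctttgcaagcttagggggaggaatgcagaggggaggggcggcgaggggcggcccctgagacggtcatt
Hspa5, chr2:34771840-34772089, plus strand: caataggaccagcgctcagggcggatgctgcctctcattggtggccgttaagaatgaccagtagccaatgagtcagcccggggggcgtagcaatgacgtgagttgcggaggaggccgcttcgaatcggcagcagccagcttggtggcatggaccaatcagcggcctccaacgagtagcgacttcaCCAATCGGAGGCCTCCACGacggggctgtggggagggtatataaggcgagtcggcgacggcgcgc

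GAANNTTC was present in 6.69% of 32851 promoter windows, and among the members in those of Hspa1a, Hspa1b and Hspb1. The opposite pairing, TTCNNGAA, was in 7.17% of windows and, among the members, in both windows of Hsph1. The full ER stress element was rare, at 37 windows or 0.113%, and among the members only the Hspa5 window held it, 65 to 47 bases before the start. Windows of Dnajb1, Atf3, Ddit3 and Gadd45b held none of these 3 patterns. A letter match is a description of the sequence and not a measured binding site. Hspa1a and Hspa1b lie next to each other on chromosome 17, from 34969190 to 34972156 and from 34956436 to 34959238, and share 247 of 250 bases before the start. Their transcripts share 63.8% of the 31-base words of Hspa1a, but none of the 470 words in its last 500 bases, where this assay captures most reads. Ddit3 has 2 overlapping identifiers on chromosome 10, of which ENSMUSG00000025408 held all UMIs.

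At 2 dpi, Atf3, Hspb1 and Hspa5 were above the slice at rest by more than 2-fold, and the other 6 members were not. Across all genes 15.1% of 15197 were at least 2-fold higher at 2 dpi and 3.53% at least 2-fold lower, and of the 9 members 3 were higher and 0 lower by that much. With 1 mouse at each point there is no test, and the intervals below are exact 95% intervals for counting error only. The same 3 members passed 2-fold in spots over 8000 UMIs of both slices, where 15.5% of genes did, so these differences were also seen outside the RNA-poor tissue.

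**Figure D1:**
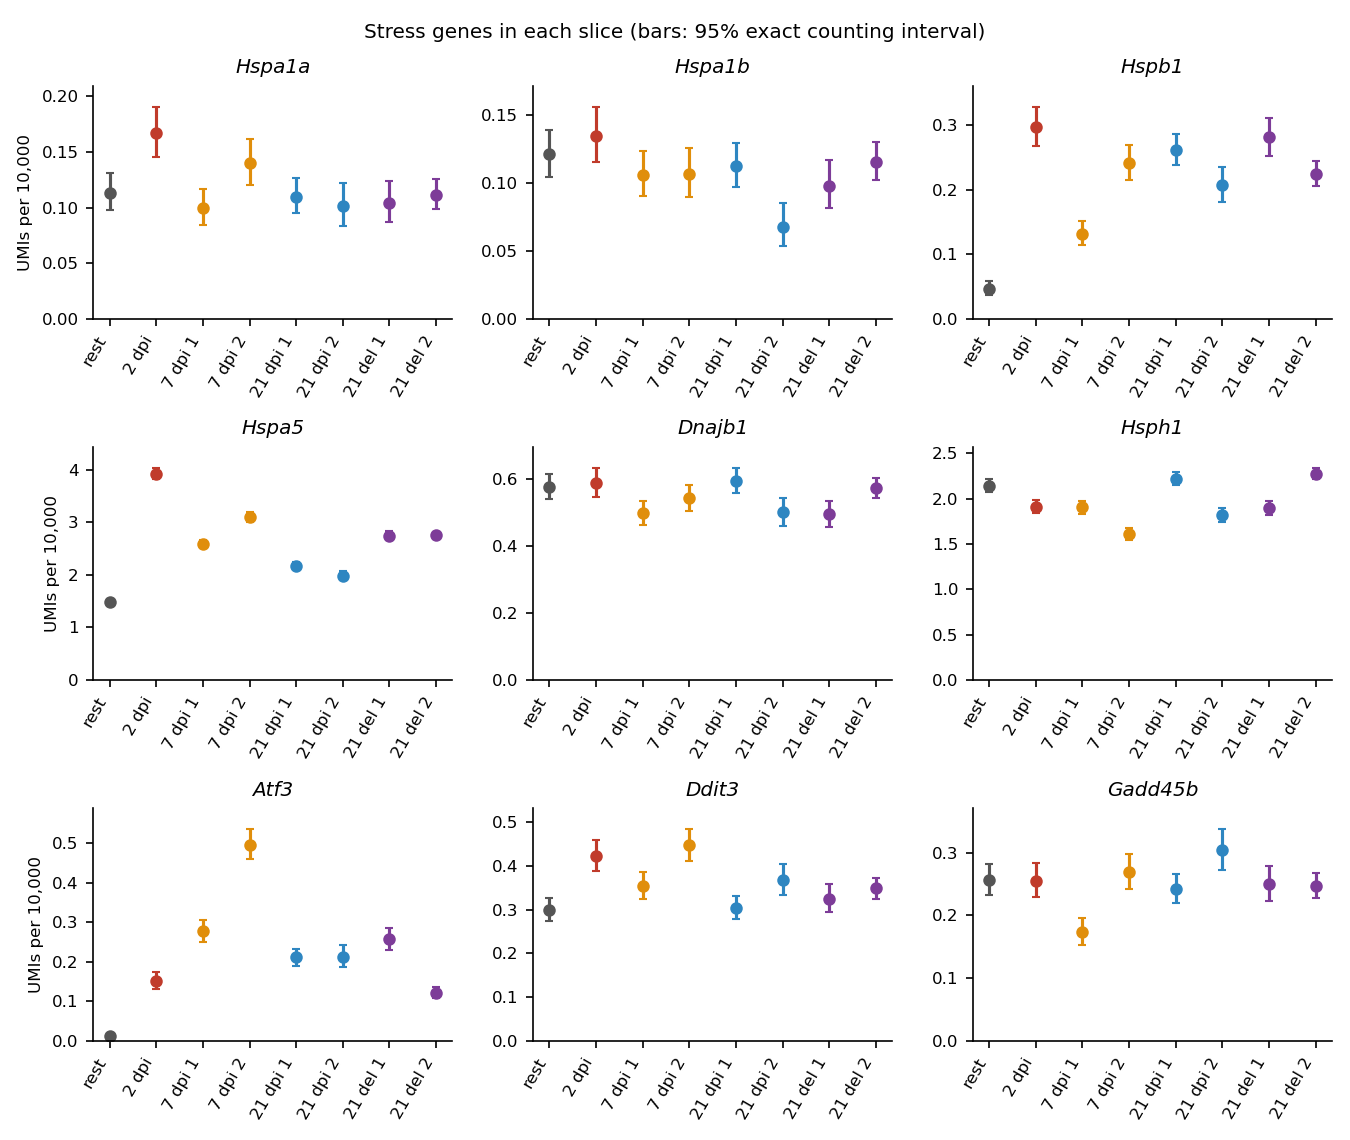
Each panel plots 1 gene as UMIs per 10000 in each of the 8 slices (1 mouse each), with exact 95% counting intervals as bars. Atf3, Hspb1 and Hspa5 were lower at rest than in every injured slice by at least 1.34-fold, whereas Dnajb1, Hsph1, Hspa1a, Hspa1b and Gadd45b at rest lay within the range of the injured slices.

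Hspa5 encodes BiP, the major HSP70 of the ER lumen and the chaperone that releases the unfolded protein sensors. Its level was 1.48 UMIs per 10000 at rest and 3.92 at 2 dpi. Both slices at 7 dpi lay in between, at 2.59 and 3.10, as did the later ones, with 2.17 and 1.98 in WT slices at 21 dpi, and 2.75 and 2.76 in deleter slices. The slice at rest was below all 7 injured slices, the nearest being slice 2 at 21 dpi, and 2 dpi was the highest. The ratio of 2 dpi to rest was 2.66 (2.53 to 2.79) over all spots and 2.58 (2.45 to 2.72) in spots over 8000 UMIs.

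The ER genes were examined as a list of 27 chaperones and unfolded protein response genes, Hspa5 included. In 2 dpi against rest, 9 of 27 were at least 2-fold higher and none lower, with a median log2 ratio of 0.70 against 0.05 over all genes. Of all genes 15.1% were at least 2-fold higher. Sdf2l1, a cofactor of ER HSP40 proteins, had the highest ratio at 3.43 (2.88 to 4.11), followed by Edem1, which marks glycoproteins for degradation, at 3.39 (2.86 to 4.04), and Pdia4, a disulfide isomerase, at 3.21 (2.74 to 3.78). The ratios at the low end belonged to Sel1l, Eif2ak3 (PERK) and Atf6, at 0.891, 0.900 and 0.921. Across 10 sums (7 slices and the 3 UMI classes at 2 dpi), the genes whose log2 levels were most like Hspa5 by Pearson's r were Kars (0.97), Sfpq (0.97), Manf (0.97), Srsf9 (0.96) and Hsp90b1 (0.95), out of 12535 genes compared. These sums share libraries and depth, and the values are a description. Hsp90b1 encodes the ER HSP90 and Manf a secreted ER stress protein, whereas Kars is a lysyl-tRNA synthetase and Sfpq and Srsf9 are splicing factors.

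Hspb1 encodes HSP27, a small heat shock protein that holds unfolding proteins and binds actin. It was at 0.0465 UMIs per 10000 at rest and 0.296 at 2 dpi. The slices at 7 dpi had 0.132 and 0.241, the WT slices at 21 dpi 0.261 and 0.206, and the deleter slices 0.281 and 0.224. Every injured slice was at least 2.84-fold above rest. The ratio of 2 dpi to rest was 6.38 (4.98 to 8.27), and 7.76 (5.90 to 10.4) in spots over 8000 UMIs.

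The other 4 cytosolic chaperone genes were under 2-fold apart between these slices. Hspa1a and Hspa1b encode the inducible cytosolic HSP70, at 0.113 and 0.121 at rest and 0.167 and 0.134 at 2 dpi, ratios of 1.47 (1.205 to 1.80) and 1.11 (0.901 to 1.37). When single spots were weighted equally, Hspa1a passed 2-fold, at a log2 ratio of 1.43. Dnajb1, the HSP40 that hands clients to HSP70, was at 0.578 and 0.589, a ratio of 1.02 (0.926 to 1.12). Hsph1, the HSP110 nucleotide exchange factor, was at 2.14 and 1.91, a ratio of 0.893 (0.848 to 0.940).

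Among 35 cytosolic chaperones and HSF1 genes, 5 members included, 4 were at least 2-fold higher at 2 dpi and none lower, with a median log2 ratio of 0.06. Of all genes 15.1% were at least 2-fold higher. Those with the highest ratios were all small heat shock proteins: Hspb6 at 7.83 (5.89 to 10.6), Hspb1, and Hspb8 at 5.37 (4.36 to 6.66). Dnajb6, an HSP40 that suppresses aggregation, Ubb, a polyubiquitin gene, and Hspa4l, an HSP110, had the lowest, at 0.761, 0.795 and 0.834.

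Atf3, an early-induced basic leucine zipper factor, was nearly absent at rest, with 19 UMIs or 0.0116 per 10000 in 1.87% of spots. At 2 dpi it was at 0.150, and at 7 dpi at 0.277 and 0.497. The WT slices at 21 dpi had 0.211 and 0.213 and the deleter slices 0.257 and 0.121. Every injured slice was at least 10.4-fold above rest, and slice 2 at 7 dpi stood highest. The ratio of 2 dpi to rest was 13.0 (8.08 to 22.0), and 9.19 (5.57 to 16.0) in spots over 8000 UMIs.

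Ddit3 encodes CHOP, a factor of prolonged ER stress. It was at 0.299 at rest and 0.422 at 2 dpi, a ratio of 1.41 (1.249 to 1.60), and at 0.305 to 0.447 in the other injured slices. Rest was therefore the lowest slice, but only 1.02-fold under slice 1 at 21 dpi. Gadd45b, a damage-inducible adaptor of stress kinases, was at 0.256 and 0.255, a ratio of 0.998 (0.862 to 1.16). Over all members, rest lay below every injured slice for 4 (Atf3, Hspb1, Hspa5 and Ddit3), against 36.8% of 14538 genes, and by at least 2-fold for Atf3 and Hspb1, against 8.45%.

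In the ATF4 and integrated stress response list, 6 of 27 genes were at least 2-fold higher at 2 dpi and none lower, with a median log2 ratio of 0.49. The share over all genes, for this list and those that follow here, was 15.1%. Atf3 led, followed by Trib3, a pseudokinase induced by CHOP, at 5.83 (2.37 to 17.2) on 28 and 6 UMIs, and Nupr1, a small stress-induced chromatin protein, at 3.41 (2.86 to 4.07). The lowest were Ddit4, an inhibitor of mTORC1, at 0.607, Asns, asparagine synthetase, at 0.616, and Chac1, a glutathione-degrading enzyme, at 0.631. In the GADD45 and p53 list, 3 of 17 genes passed 2-fold: Tnfrsf10b, a death receptor, at 4.50 (1.61 to 15.5) on 18 and 5 UMIs, Cdkn1a, the cell cycle inhibitor p21, at 3.002 (2.53 to 3.57), and Gadd45g at 2.46 (2.15 to 2.83). Btg2, Plk2 and Zmat3 had the lowest ratios, at 0.591, 0.689 and 0.753. Among 18 oxidative stress genes 8 passed 2-fold, the highest being Hmox1, which degrades haem, at 28.9 (21.9 to 39.1), the metallothionein gene Mt2 at 4.06 (3.88 to 4.24) and Nfe2l2, which encodes NRF2, at 3.36 (2.94 to 3.85). Sqstm1, Sod2 and Gclc had the lowest, at 0.922, 0.972 and 1.01.

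Cell type markers differed between the same slices. From rest to 2 dpi the summed level of the 8 neuron markers went from 72.0 to 39.6 UMIs per 10000, of the 5 macrophage markers from 0.159 to 3.26 and of the 5 neutrophil markers from 0.0342 to 1.54. Microglia markers went from 2.34 to 4.95, astrocyte markers from 12.9 to 20.7, fibroblast markers from 0.303 to 1.078 and erythrocyte markers from 18.9 to 2.29. In spots over 8000 UMIs neurons were at 73.3 and 40.6, macrophages at 0.150 and 2.16 and neutrophils at 0.0324 and 0.937. The part of these differences in the members' ratios and in those of the lists was not tested.

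Within the slice at 2 dpi the members were unevenly placed. Spots were split into 777 with under 2000 UMIs, 298 with 2000 to 8000 and 651 over 8000, and each level is relative to the UMIs of its own class. Of the spots under 2000 UMIs, 761 formed a single connected core, here called the low-UMI core.

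**Figure D2:**
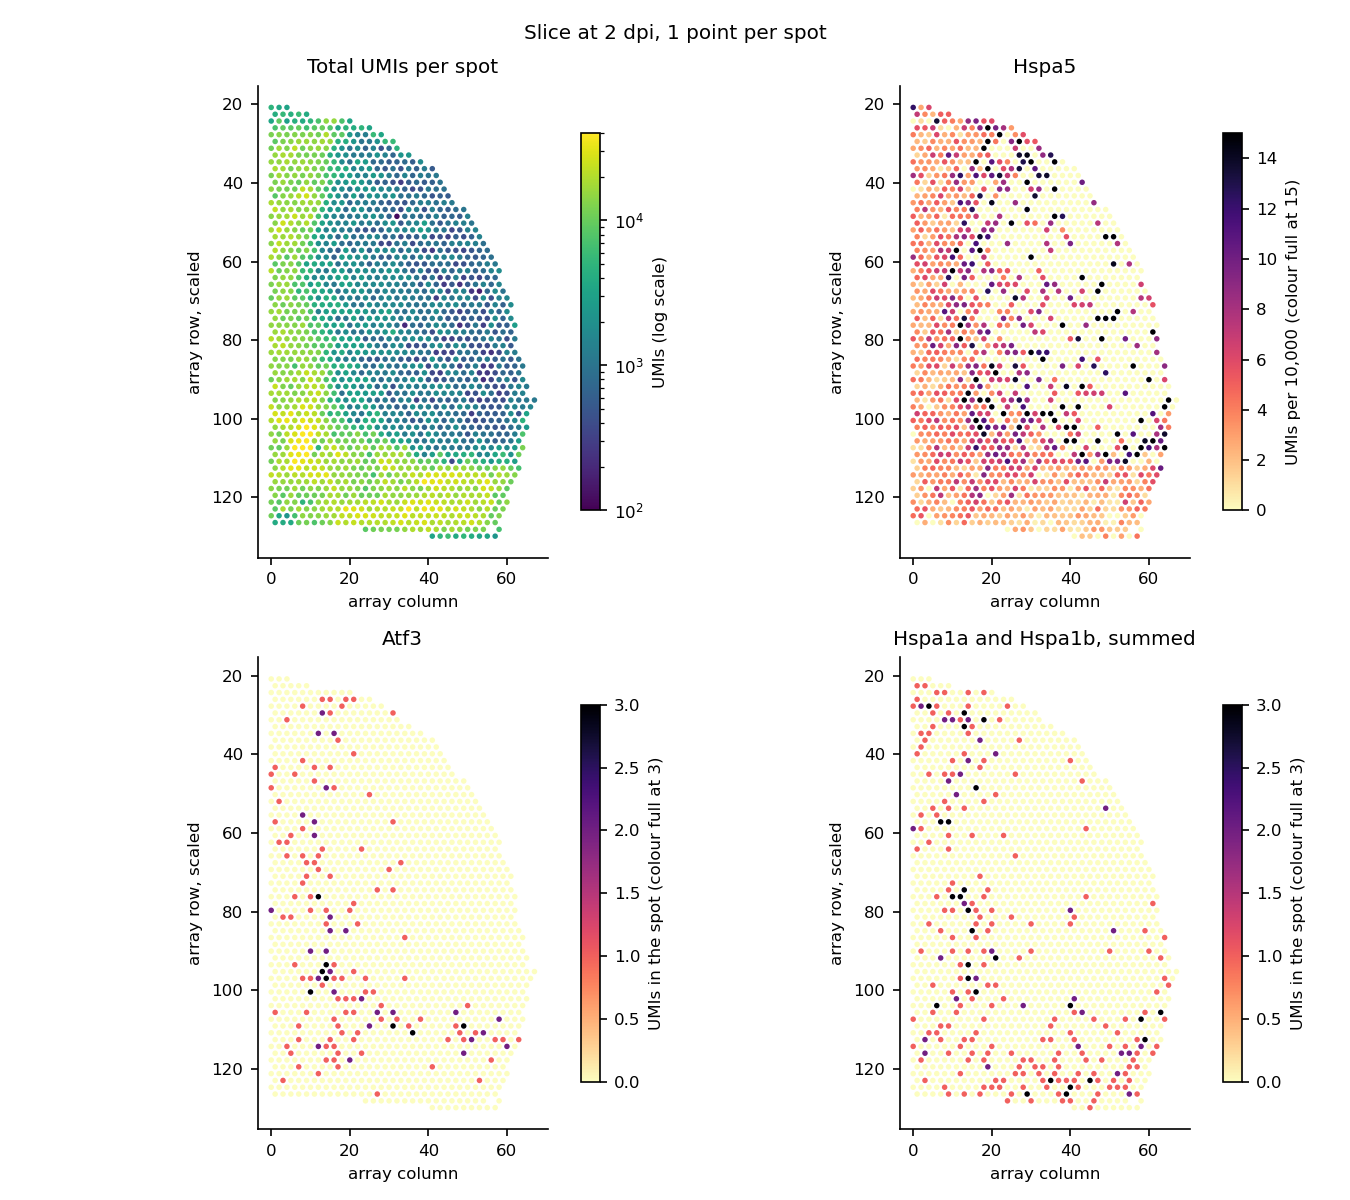
Each point is 1 spot of the slice at 2 dpi in array position, coloured by total UMIs (log scale), by Hspa5 UMIs per 10000, or by the UMIs of Atf3 and of Hspa1a and Hspa1b together. Spots with Atf3 lie along the margin of the low-UMI core and also further out from it. Spots with Hspa1a or Hspa1b lie in the core, along its margin, further out and at the lower edge of the slice.

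Hspa1a and Hspa1b were lower in spots over 8000 UMIs than in both poorer classes. Hspa1a was at 0.419 UMIs per 10000 (0.290 to 0.585) in spots under 2000 UMIs, at 0.320 (0.225 to 0.441) in the middle class and at 0.132 (0.112 to 0.155) over 8000. Hspa1b was at 0.296 (0.189 to 0.440), 0.329 (0.232 to 0.451) and 0.102 (0.0845 to 0.123). Both genes gave disjoint intervals between the richest class and each of the others. They were the members at least 2-fold lower over 8000 than under 2000 UMIs, at ratios of 0.316 (0.216 to 0.473) and 0.347 (0.222 to 0.563), against 2.67% of 13962 genes. No member was at least 2-fold higher in that comparison, against 10.2% of genes. The counts behind the low class were small, with 34 and 24 UMIs.

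The lowest class could not be compared in the other slices, which had 1 to 38 spots under 2000 UMIs. In the 7 slices other than 2 dpi, Hspa1a was between 0.0754 and 0.145 in spots of 2000 to 8000 UMIs and between 0.0998 and 0.145 in spots over 8000. For Hspa1b these ranges were 0.0529 to 0.145 and 0.0688 to 0.120. Within single slices the intervals of both classes overlapped for each gene, also in deleter slice 1, where both genes were at 0.145 in the middle class against 0.101 for Hspa1a and 0.0950 for Hspa1b over 8000.

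Atf3, Hspa5 and Gadd45b were highest in the middle class. Atf3 was at 0.160 (0.0853 to 0.274), 0.579 (0.449 to 0.736) and 0.105 (0.0870 to 0.126) in the low, middle and high classes, so that 34.0% of its UMIs lay in a class holding 8.84% of all UMIs of the slice. Hspa5 was at 3.15 (2.78 to 3.56), 5.71 (5.29 to 6.17) and 3.79 (3.68 to 3.91). Gadd45b was at 0.283 (0.180 to 0.425), 0.475 (0.358 to 0.619) and 0.230 (0.203 to 0.260), and its low and middle intervals overlapped. From the high to the middle class, 4 members were at least 2-fold higher: Atf3 at 5.51 (4.02 to 7.50), Hspa1b at 3.21 (2.16 to 4.66), Hspa1a at 2.42 (1.64 to 3.49) and Gadd45b at 2.07 (1.51 to 2.77), against 4.72% of 14032 genes. From the low to the middle class Atf3 passed, at 3.62 (1.98 to 7.14), against 6.75% of 9956 genes. Atf3, Hspa5 and Gadd45b were also higher in the middle than in the high class of both slices at 7 dpi. Atf3 was at 0.388 and 0.626 there against 0.270 and 0.485, and intervals overlapped for Atf3 and Gadd45b. In WT slices at 21 dpi Atf3 went the other way, at 0.0806 and 0.0700 against 0.224 and 0.222. Hspa5 and Gadd45b there were lower in the middle class of slice 1 and higher in that of slice 2.

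Hspb1, Dnajb1, Hsph1 and Ddit3 differed less between classes. Hspb1 was at 0.197, 0.320 and 0.301, with overlapping intervals. Hsph1 was at 1.92, 1.94 and 1.91. Dnajb1 was at 0.801 (0.618 to 1.02), 0.519 (0.396 to 0.668) and 0.581 (0.537 to 0.627), and Ddit3 at 0.320 (0.209 to 0.469), 0.510 (0.388 to 0.658) and 0.421 (0.383 to 0.461).

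Distance from the low-UMI core gave a finer order. The spots were grouped by steps from the edge of the core, inward and outward, and each group held 199983 to 4070116 UMIs. Atf3 had 0 UMIs in the inner core (4 or more steps in), for which the exact interval reaches 0.184 per 10000 (3 counts would be 0.150). It was at 0.204 in the outer core, 0.574 (0.400 to 0.799) 1 step out, 0.493 at 2 steps and 0.299 at 3 steps, and fell to 0.156, 0.0688 and 0.0569 at 4 to 6, 7 to 10 and over 10 steps. The last value was still above the level of 0.0116 at rest. Gadd45b took a similar shape, with 0.100 (0.0121 to 0.361) in the inner core on 2 UMIs and 0.525 (0.359 to 0.741) at 1 step, overlapping intervals. It was at 0.493 at 2 steps and 0.174 over 10 steps.

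Hspa5 rose from 2.20 (1.60 to 2.95) in the inner core to 6.63 (5.998 to 7.31) 1 step out. It then declined to 3.31 at 7 to 10 steps and 3.62 over 10 steps, levels above the 1.48 at rest. Ddit3 peaked 1 ring further out, at 0.985 (0.740 to 1.29) 2 steps from the core, against 0.476 (0.319 to 0.683) at 1 step and 0.285 over 10 steps. Hsph1 likewise was highest at 2 and 3 steps, at 2.83 (2.40 to 3.31) and 2.63 (2.30 to 2.998), and at 1.59 over 10 steps.

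Hspa1a and Hspa1b were both highest 3 steps out, where the median was 10141 UMIs per spot. They were lower in the inner core, where it was 810, on 6 and 5 UMIs, and the intervals of these groups overlapped. The part of the UMIs per spot in these profiles was not tested. Hspa1a was between 0.300 and 0.529 in the core and the first 3 rings, then at 0.0972 (0.0669 to 0.137) at 4 to 6 steps and 0.0818 over 10 steps. Hspa1b was between 0.25 and 0.334 inside that limit and between 0.0605 and 0.111 outside it. Hspb1 stayed between 0.187 and 0.414 in all groups, each above the 0.0465 at rest. Dnajb1 was at 0.800 and 0.798 in the core and between 0.511 and 0.623 outside it.

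**Figure D3:**
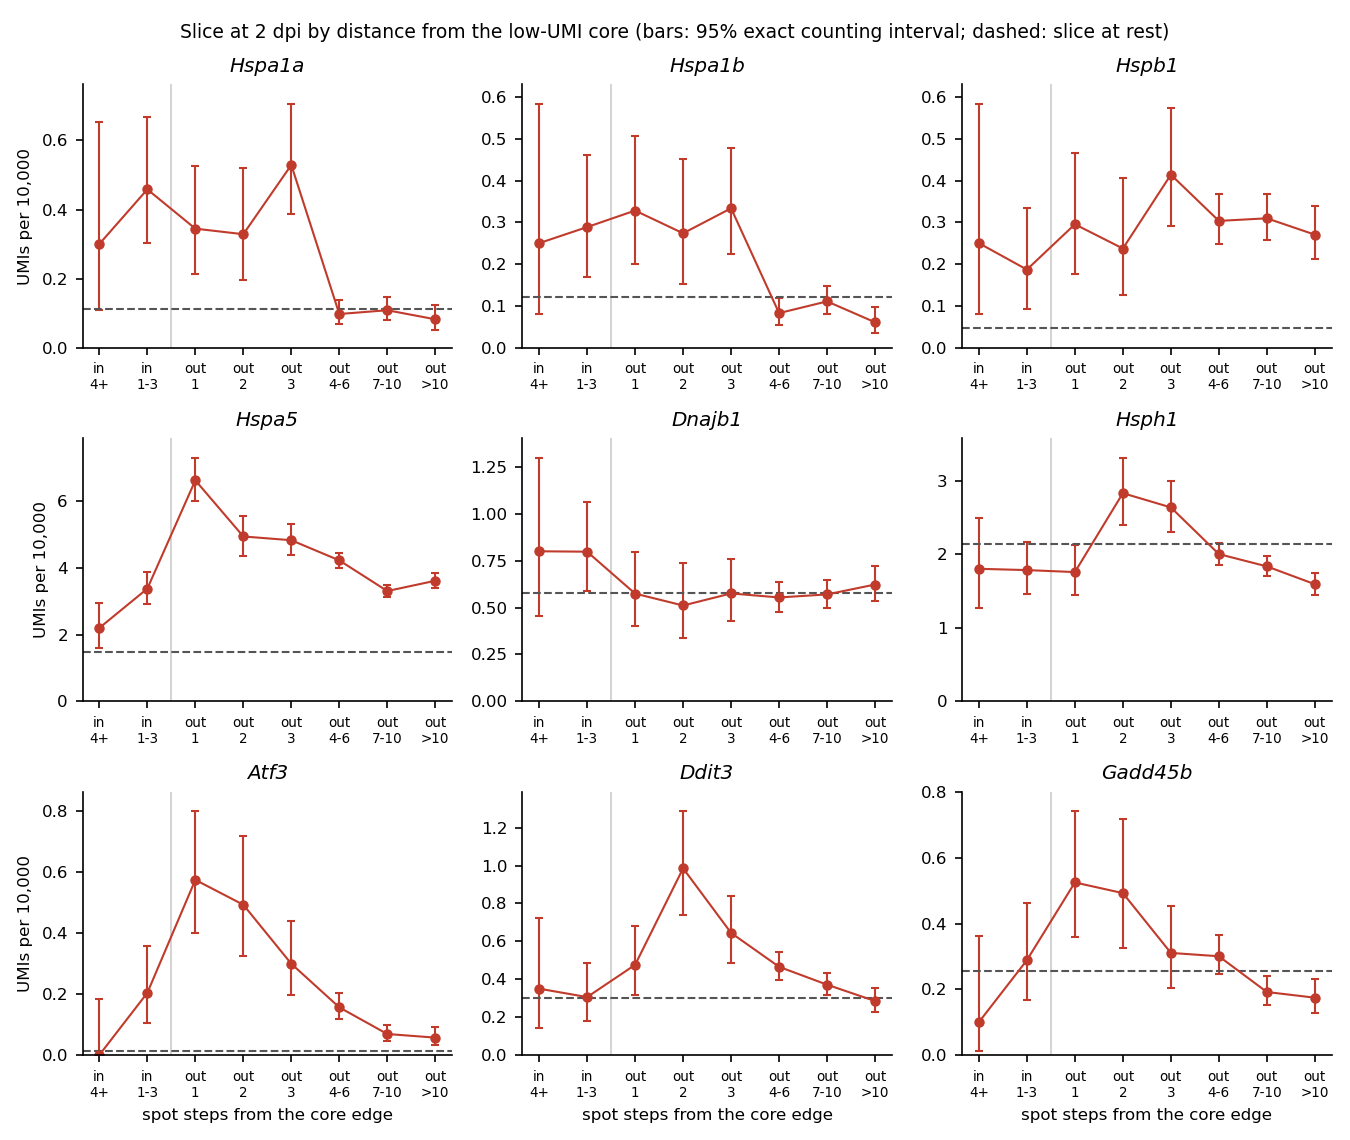
UMIs per 10000 of each gene in the slice at 2 dpi by steps inward or outward from the edge of the low-UMI core (grey vertical line), with exact 95% counting intervals and the level at rest as a dashed line. Atf3, Hspa5 and Gadd45b peak 1 step out, Ddit3 2 steps out, and Hspa1a and Hspa1b drop between 3 and 4 to 6 steps.

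Cell type markers moved over the same rings. The summed level of the 5 macrophage markers was 13.6 UMIs per 10000 at 1 step and 11.9 at 2 steps. It was 2.25 in the inner core, 6.86 in the outer core and 1.57 to 3.601 from 3 steps on. The 5 neutrophil markers were at 7.73 and 5.22 in the first 2 rings and at 0.228 to 2.00 from 3 steps on. They were at 7.72 in the outer core and 1.35 in the inner core. The 8 neuron markers were at 49.2 in the inner core, 28.5 at 1 step, 49.2 at 4 to 6 steps and 21.6 over 10 steps. The 5 oligodendrocyte markers were at 96.0 in the outer core, 47.0 at 3 steps, 70.6 at 7 to 10 steps and 121 over 10 steps. The 5 astrocyte markers were at 10.4 at 1 step, 9.25 at 3 steps, 27.3 at 7 to 10 steps and 23.0 over 10 steps. The part of these cell types in the members' profiles was not tested.

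Between 7 and 21 dpi no member passed the test on whole slices. With UMIs summed over each slice and tested by edgeR's quasi-likelihood method, 0.0382% of 15727 genes were called (6 genes, with 1946 at an unadjusted p under 0.05, but 335 called without slice 1 at 7 dpi and 39 without slice 2). Hspa5 was 0.49 higher at 7 dpi on the log2 scale (SE 0.14, adjusted p = 0.293) and Atf3 0.91 higher (SE 0.30, adjusted p = 0.334), with both slices at 7 dpi above both WT slices at 21 dpi for each gene. Without slice 1 at 7 dpi the Atf3 difference was 1.29, with an adjusted p of 0.0246, in a fit where the lone slice at 7 dpi is assumed to vary like the pair at 21 dpi. The other 7 members lay between -0.29 for Hspb1 and 0.30 for Ddit3. In the deleter slices against WT at 21 dpi, the share called was 0% of 15708 genes (529 at an unadjusted p under 0.05, and 12 called by DESeq2). Hspa5 was at 2.75 and 2.76 in the deleter slices and 2.17 and 1.98 in WT slices, a log2 difference of 0.48 (SE 0.11, adjusted p = 0.999).

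Where the members lie was tested within injured slices. In the 4 WT slices at 7 and 21 dpi, spots with at least 5 Col1a1 UMIs per 10000 (fibrotic spots, 112, 392, 170 and 203) were summed and set against spots without a Col1a1 UMI (413, 228, 638 and 283), with the slice as a block. Col1a1, a collagen chain gene made by fibroblasts, chose the spots and is no result. The study places fibroblasts at brain borders also without injury, and only some of its Col1a1-rich spot clusters were tied to injury. Border spots were not set apart here, so the fibrotic spots may include them. The 2 sides differed widely: 28.9% of 14146 genes were higher and 27.9% lower in fibrotic spots, so a call alone says little about a member. Fibrotic spots were poorer in RNA at 7 dpi, with medians of 4923.5 and 9206.5 UMIs against 16149 and 17361.5. At 21 dpi their medians were 10828 and 13879 against 11718 and 11061, so in slice 2 they were the richer side.

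**Figure D4:**
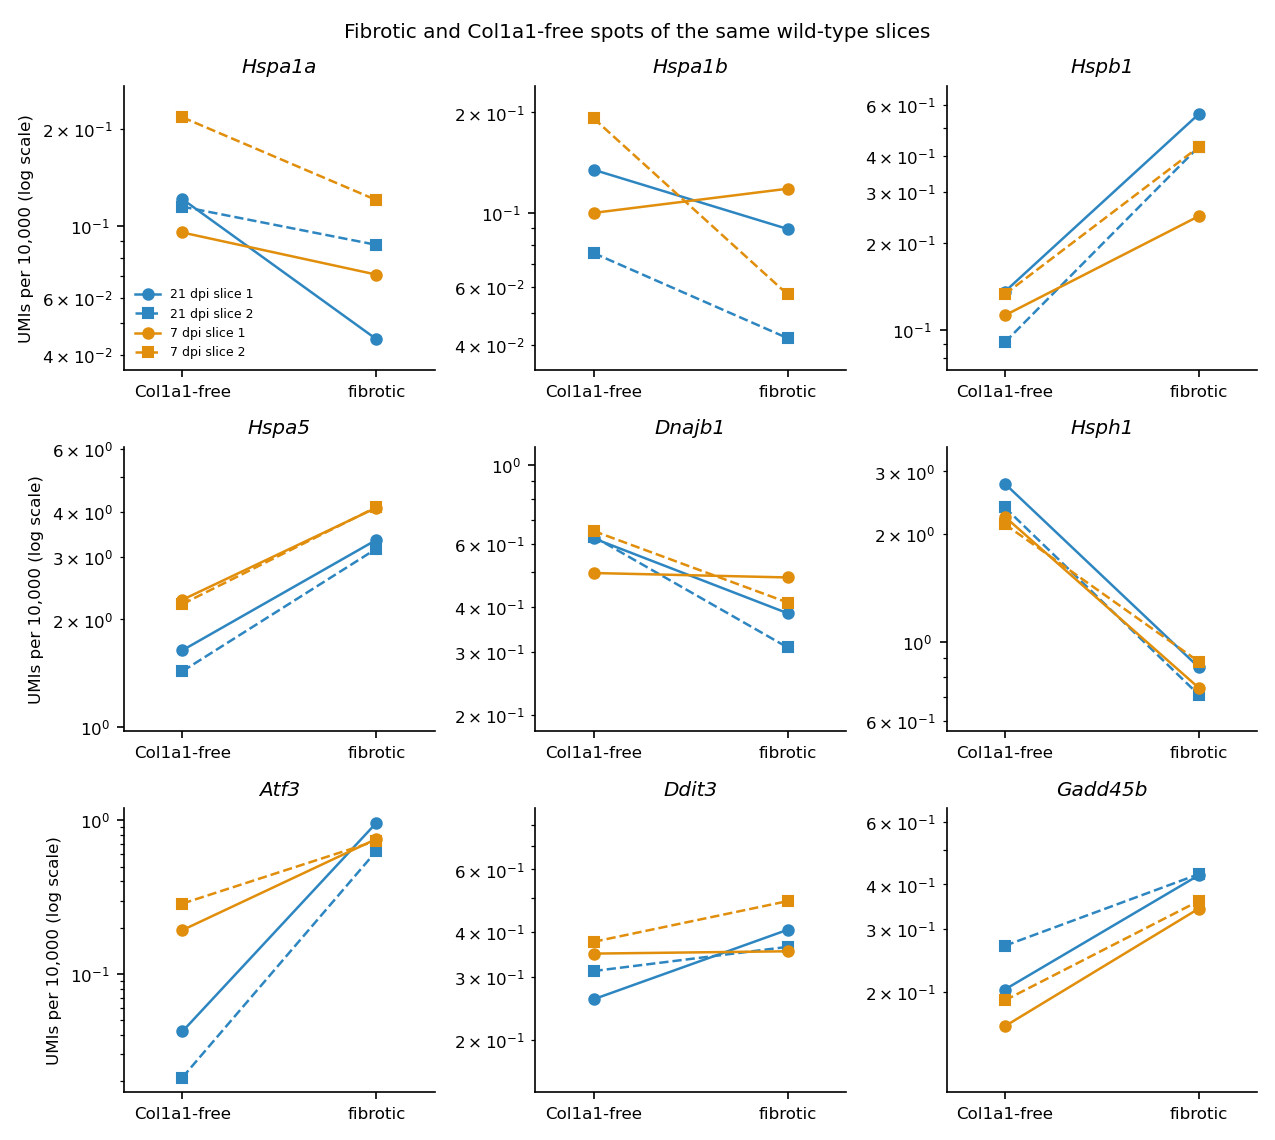
UMIs per 10000 (log axis, each panel with its own range) in Col1a1-free and fibrotic spots, with a line joining both sums of each of the 4 WT slices. Atf3, Hspb1, Hspa5, Gadd45b and Ddit3 are higher in fibrotic spots of all 4 slices, and Hsph1, Hspa1a and Dnajb1 lower in all 4. Ddit3 and Dnajb1 differ little in slice 1 at 7 dpi. The Atf3 lines are steeper at 21 dpi than at 7 dpi.

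Hspa5, Hspb1, Atf3 and Gadd45b rose and Hsph1 fell in fibrotic spots, with every slice showing the direction and every alternative setting keeping the call. Hspa5 was at 4.11 and 4.12 UMIs per 10000 in fibrotic spots against 2.27 and 2.21 in free spots at 7 dpi, and at 3.34 and 3.15 against 1.64 and 1.43 at 21 dpi. The change was 1.04 on the log2 scale (SE 0.10, adjusted p = 0.000311). Hspb1 was at 0.248 and 0.430 against 0.113 and 0.133 at 7 dpi, and at 0.559 and 0.431 against 0.136 and 0.0908 at 21 dpi, a change of 1.87 (SE 0.20, adjusted p = 0.000378). Gadd45b was at 0.342 and 0.360 against 0.160 and 0.190, and at 0.425 and 0.428 against 0.203 and 0.269, a change of 0.99 (SE 0.14, adjusted p = 0.00110). Fibrotic and free levels did not overlap for these 3 genes.

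Hsph1 went the other way. It was at 0.744 and 0.881 in fibrotic spots against 2.24 and 2.14 in free spots at 7 dpi, and at 0.849 and 0.711 against 2.77 and 2.38 at 21 dpi. The change was -1.52 (SE 0.12, adjusted p = 0.000217), a 2.86-fold lower level.

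The remaining members gave weaker or unstable differences. Ddit3 passed narrowly at 0.40 (SE 0.14, adjusted p = 0.0490), and was not called without slice 1 at 21 dpi (0.26, adjusted p = 0.228) or without slice 2 at 7 dpi (0.40, adjusted p = 0.123). Dnajb1 fell by 0.57 (SE 0.17, adjusted p = 0.0235), a call lost without slice 2 at 7 dpi (-0.54, adjusted p = 0.0867), slice 1 at 21 dpi (-0.57, adjusted p = 0.0893) or slice 2 at 21 dpi (-0.40, adjusted p = 0.103). Hspa1a fell by 0.74 (SE 0.23, adjusted p = 0.0315), a call lost without slice 2 at 7 dpi (-0.69, adjusted p = 0.136) or slice 1 at 21 dpi (-0.58, adjusted p = 0.123). Hspa1b differed by -0.77 (SE 0.34, adjusted p = 0.0873) and passed without slice 1 at 7 dpi (-1.04, adjusted p = 0.0366). Fibrotic spots held 6 to 53 UMIs of Hspa1a and 10 to 25 of Hspa1b per slice.

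The lists below include the members that belong to them. Over all genes 28.9% were higher and 27.9% lower in fibrotic spots, so counts near these shares say little about a list. Of 27 ER genes 19 rose and 1 fell in fibrotic spots, with a median log2 change of 0.75 against 0.00 over all genes. P4hb, a disulfide isomerase and collagen prolyl hydroxylase subunit, rose by 1.78 (SE 0.14, adjusted p = 0.000192), Edem1 by 1.76 (SE 0.16, adjusted p = 0.000251) and Pdia4 by 1.42 (SE 0.17, adjusted p = 0.000545), and Atf6 fell by 0.38 (SE 0.12, adjusted p = 0.0317). Of 35 cytosolic chaperone and HSF1 genes 4 rose and 19 fell, with a median of -0.46. The risers were led by the cochaperone Bag3 (1.91), Hspb8 (1.87) and Hspb1, and those that fell most were Hsph1, Hspa4l (-1.36) and Hsp90aa1 (-1.01), each with an adjusted p of at most 0.00107.

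Of 26 ATF4 and integrated stress response genes tested, 13 rose and 3 fell, with a median of 0.42. Nupr1 rose by 3.14 (adjusted p = 0.000199), Atf3 by 2.90 (SE 0.57, adjusted p = 0.00437) and Eif4ebp1, a repressor of translation initiation, by 1.79 (adjusted p = 0.00121). Asns (-1.75), Chac1 (-1.60) and Nars (-0.38) fell, of which Asns and Nars are biosynthetic targets of ATF4. Of 18 GADD45 and p53 genes 12 rose and 2 fell: Eda2r (3.15), Tnfrsf10b (3.10) and Cdkn1a (2.33) rose most, and Plk2 (-1.14) and Zmat3 (-0.67) fell. Of 18 oxidative stress genes 7 rose, led by Hmox1 (2.82), Nfe2l2 (2.06) and Gpx1 (1.77), and Sod2 (-0.70) and Srxn1 (-0.62) fell. The shares over all genes, for each of these lists, were 28.9% higher and 27.9% lower.

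Cell type markers differed strongly between the same spots. All 8 neuron markers fell, with sums of 13.0 to 19.6 UMIs per 10000 in fibrotic and 46.5 to 92.4 in free spots. All 5 macrophage markers rose, with sums of 59.4 to 108 against 1.72 to 14.5, as did 4 of 5 microglia markers and 4 of 5 endothelial markers. The part of these differences in cell type in the members' changes was not tested.

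The fibrotic effect on Atf3, measured against Col1a1-free spots, differed between time points. In free spots Atf3 was at 0.193 and 0.287 UMIs per 10000 at 7 dpi and at 0.0422 and 0.0212 at 21 dpi, so the time points did not overlap, whereas fibrotic spots had 0.756 and 0.735 at the earlier time and 0.961 and 0.631 later. The free spots held 137 and 112 Atf3 UMIs at 7 dpi but only 32 and 7 at 21 dpi, so the later effect rests on few counts. In slice 2 at 7 dpi, spots over 10 steps from the largest fibrotic patch were at 0.0203, on 3 UMIs. That is near the 0.0297 and 0.0254 of such spots at 21 dpi, whereas slice 1 at 7 dpi was at 0.234. A difference between time points against such far spots was not tested. The fibrotic effect was 1.68 on the log2 scale (SE 0.19) at 7 dpi and 4.67 (SE 0.24) at 21 dpi. Their difference was -2.99 (SE 0.31, adjusted p = 0.00271), and it was called in all 11 alternatives, with adjusted p from 1.05e-17 to 0.0428. Over all genes 4.02% of 14146 were called (569, but 57 or 167 in fits lacking slice 2 or slice 1 of 7 dpi, 306 in the fit lacking slice 2 of 21 dpi), and no other member was. Hspb1 came closest, at 1.53 and 2.18 with a difference of -0.65 (SE 0.31, adjusted p = 0.302).

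Cell type markers moved with this difference. The macrophage sum in free spots was 8.13 and 14.5 UMIs per 10000 at 7 dpi and 2.76 and 1.72 at 21 dpi, and all 5 were called in the same direction as Atf3. So were 3 of 5 astrocyte markers (median over the 5 of -1.13), 3 of 5 microglia markers (-1.04) and 1 of 4 fibroblast markers, while 4 of 8 neuron markers were called in the opposite direction. The part of these cell types in the Atf3 result was not tested. In the stress lists, Gadd45g (-1.25, adjusted p = 0.0277) and 4 oxidative stress genes were called in the same direction, the furthest being Mt2 (-2.15, adjusted p = 0.00192), Mt1 (-1.57, adjusted p = 0.00248) and Nfe2l2 (-1.21, adjusted p = 0.0152). No ER or cytosolic chaperone gene was called. Over all genes 4.02% were called either way.

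Levels were also set against the distance from the largest fibrotic patch of each slice. At 21 dpi Atf3 was at 1.23 and 0.652 in the patch, 0.408 and 0.198 at 1 to 2 steps, and 0.0297 and 0.0254 over 10 steps. At 7 dpi it was at 0.737 and 0.749 in the patch, and still at 0.355 and 0.676 at 3 to 5 steps. Over 10 steps slice 1 at 7 dpi kept 0.234 and slice 2 had 0.0203, on 235 and 3 UMIs. The level of slice 2 this far out was thus like those at 21 dpi, and that of slice 1 was not. Slice 1 at 7 dpi had 112 fibrotic spots but only 45 in its largest patch, so the rest of them lay in its outer groups. The same holds for slice 1 at 21 dpi, with 170 fibrotic spots and 95 in its largest patch. All fibrotic spots of slice 1 at 7 dpi held 64 Atf3 UMIs, 32 of them in the patch. Most of its 235 Atf3 UMIs over 10 steps therefore lay in spots that were not fibrotic. Hspa5 declined from 4.47 and 4.20 in the patch to 2.31 and 1.44 over 10 steps at 7 dpi, and from 3.67 and 3.21 to 1.79 and 1.38 at 21 dpi. Hspb1 was highest in the patch in 3 slices, at 0.433 in slice 2 at 7 dpi and 0.611 and 0.431 at 21 dpi, against 0.108, 0.205 and 0.0973 over 10 steps. In slice 1 at 7 dpi it was at 0.230 in the patch, 0.372 at 1 to 2 steps and 0.242 at 3 to 5 steps, with overlapping intervals, and at 0.111 over 10 steps. Hsph1 was at 0.645 to 0.859 in the patch and at 2.22 to 2.60 over 10 steps, the reverse order in all 4 slices.

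**Figure D5:**
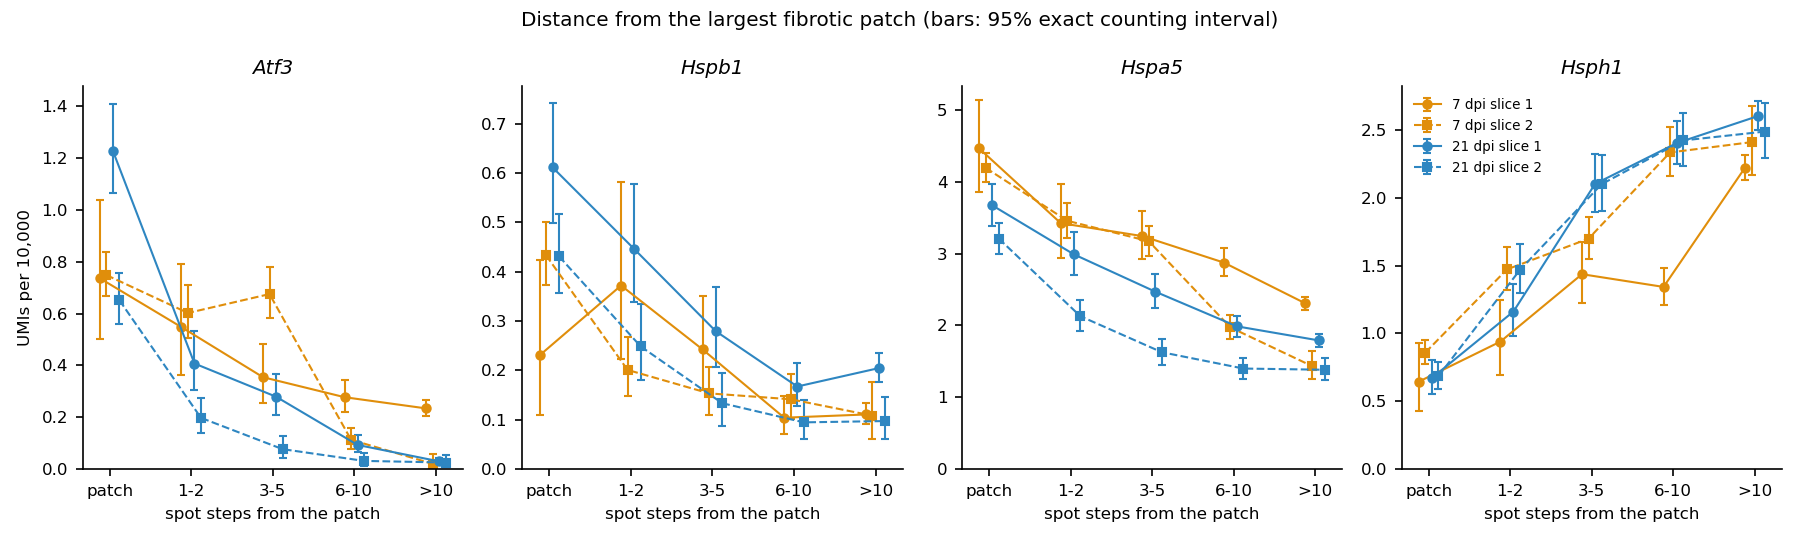
UMIs per 10000 of Atf3, Hspb1, Hspa5 and Hsph1 by spot steps from the largest fibrotic patch in each WT slice at 7 dpi (orange) and 21 dpi (blue), with exact 95% counting intervals. Atf3 and Hspa5 are highest and Hsph1 is lowest in the patch in all 4 slices, and Hspb1 is highest there in all but slice 1 at 7 dpi.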

How the data were processed

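Per the labels, 4 mouse brain Visium capture areas were measured. The submitters' processing notes name Space Ranger 2.0.0 and mm10; the authors deposited the unnormalized counts, that is UMIs of each gene in each spot. Deposited array positions joined tissue spots into 2 connected slices per area; slice 1 is the one at the lower array columns, and the numbers pair nothing between areas. Members and gene lists were chosen with earlier results of these data known, and named list genes were the 3 with the largest change each way (past the threshold, or with at least 20 UMIs).

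Levels are UMIs per 10000; intervals are exact at the 95% level and cover counting error only. Likeness to Hspa5 used log2 levels with a pseudocount of 0.01 over genes with at least 500 UMIs. Sums per slice, where 1 slice is 1 mouse, were tested with edgeR 4.0.16 in R 4.3.3 (genes kept by filterByExpr, TMM factors, quasi-likelihood F test, threshold 0.05 after Benjamini-Hochberg adjustment over all genes); standard errors are the log2 fold change over the square root of F. The fits were also tested on simulated counts. For 7 against 21 dpi, 33 of 100 genes changed by 1 on the log2 scale were recovered, and 92 of 100 changed by 2. For fibrotic against Col1a1-free spots these were 49 and 95 of 100. In that setting most 2-fold differences between whole slices at 7 and 21 dpi went uncalled. Unchanged genes called in error numbered 10 and 3 in these 2 fits. The simulated counts had the same spread (dispersion) for every gene. Their slices differed in nothing but depth and the changed genes. The shares recovered in the real data may therefore differ, and 2-fold differences there could go uncalled. Alternatives were other size factors, DESeq2 1.42.0, other filters and spot classes, no slice block, and each slice left out. Positions of genes follow GENCODE M21 (GRCm38). Deposited scale factors were not used.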

Additional observations from a re-analysis of the deposited data

Results flagged for a closer look

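The effect of fibrotic against Col1a1-free spots on Atf3 differed between time points by the test of the difference itself, at -2.99 on the log2 scale (7 dpi minus 21 dpi). The levels in all 4 slices, and the few Atf3 UMIs in free spots at 21 dpi, are given above. No group held 4 or more slices, so no slice was examined for standing apart within its group.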

How the results depend on the processing

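The count of genes called between 7 and 21 dpi depended on the setting: 6 as reported, 1 with all 8 slices in one fit, 400 with deleter slices added to 21 dpi, 398 with DESeq2, 267 without a filter and 7 to 335 with a slice left out (335 without slice 1 at 7 dpi, 39 without slice 2). For deleter against WT it was 0 as reported, 12 with DESeq2, 40 without a filter and 0 to 3 with a slice left out (3 without deleter slice 2). For the difference in the fibrotic effect it was 569 as reported, 173 with the 75 spots of most Col1a1, 346 with DESeq2, 1435 without a filter, 255 with no slice block, 166 in spots of 8000 or more UMIs and 57 to 819 with a slice left out (57 without slice 2 and 167 without slice 1 at 7 dpi, 306 without slice 2 at 21 dpi). The members past 2-fold between spots over 8000 and a low class at 2 dpi were 2, and 4 with the low class under 1000 UMIs. The causes were not tested. Where a slice left out leaves 1 at a time point or genotype, that slice is assumed to vary like the others. The fibrotic calls themselves ranged from 5923 to 7322 genes with a slice left out, against 8028.

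Signs turned only for members that passed no threshold in the comparison. The difference in the fibrotic effect was -0.0014 for Hspa1a with at least 10 Col1a1 UMIs per 10000, and -0.055 for Gadd45b in spots of 8000 or more UMIs. With a slice left out, that difference ranged from -0.37 to 0.64 for Hspa1a, -1.06 to 0.99 for Hspa1b, -0.42 to 0.032 for Ddit3 and -0.098 to 0.33 for Gadd45b. For 7 against 21 dpi the ranges were -0.074 to 0.46 for Hspa1a, -0.074 to 0.67 for Hspa1b, -0.81 to 0.089 for Hspb1, -0.18 to 0.079 for Dnajb1 and -0.63 to 0.040 for Gadd45b. For deleter against WT they were -0.0026 to 0.75 for Hspa1b, -0.084 to 0.19 for Dnajb1, -0.018 to 0.30 for Hsph1, -0.72 to 0.36 for Atf3, -0.030 to 0.22 for Ddit3 and -0.20 to 0.10 for Gadd45b. Without the slice block, the fibrotic change of Hspa1a lost the call (-0.60, adjusted p = 0.166). Ddit3 was also not called with DESeq2, without a filter, with 10 Col1a1 UMIs per 10000 or with 75 spots, and Hspa1a not with DESeq2 or in spots of 8000 or more UMIs. Levels of Hspa1a, Hspa1b and Atf3 in RNA-poor spots rest on few UMIs, as does Atf3 in Col1a1-free spots at 21 dpi. The slices at rest and 2 dpi come from 1 mouse each.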
